A study of Mus musculus with 78 samples.

Results

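Gene expression in the liver of 3-week-old female Npc1-/- mice was compared with that of Npc1+/+ mice of the same age. The comparison holds 8 of the 78 liver arrays of the study, 4 for each genotype and 1 for each mouse, chosen by the age and genotype in the sample titles. All 8 mice were BALB/c females of the BALB/cNctr-Npc1m1N/J line, littermates from crosses between Npc1+/- parents, and the Npc1-/- mice carry the m1N mutation in every tissue. Pups were weaned at 3 weeks and genotyped from tail DNA, no treatment is given in the labels, and the livers were frozen on dry ice. Npc1-/- mice of this age are labelled as pre-symptomatic, and Npc1+/+ mice as asymptomatic. The same comparison was made at 1, 5, 7, 9 and 11 weeks with 4 mice of each genotype per age.

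NPC1 is a membrane protein of late endosomes and lysosomes that passes on cholesterol released from lipoproteins, after the soluble protein NPC2 has handed it over. When NPC1 is missing, unesterified cholesterol and sphingolipids stay in lysosomes, and the endoplasmic reticulum, where SCAP and SREBP-2 set the rate of cholesterol synthesis, receives less of it. In liver both hepatocytes and the resident macrophages, called Kupffer cells, take up lipoprotein cholesterol, and lipid-laden macrophages are a known feature of Niemann-Pick type C disease. The weeks around weaning are also a time of liver maturation, in which blood cell formation leaves the organ and the adult detoxifying enzymes appear.

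Values are log2 expression levels on the deposited scale, so a difference of 1 is a 2-fold change, and differences are given as the Npc1-/- mean minus the Npc1+/+ mean with the standard error of limma's fit. The 8 arrays had similar medians over all probe sets, from 5.47 to 5.64, and each correlated at 0.992 to 0.994 on average with the others of its group. Albumin (Alb), which defines hepatocytes, lay between 13.34 and 13.77 in all 8 mice. Genes of the exocrine pancreas were present in 2 of them. Averaged over 23 pancreas genes, the level was 7.74 and 7.76 in Npc1+/+ mice 1 and 2, against 4.74 in each of Npc1+/+ mice 3 and 4 and 4.53 to 4.79 in the Npc1-/- mice. The counts of genes that passed, in all and by gene list, and the calls at 3 weeks were therefore also computed without these 2 mice. That leaves 4 Npc1-/- against 2 Npc1+/+ mice. Counts of non-overlapping values, of genes shared between ages and of motifs were made with all 8 mice only. Some calls between ages were not rechecked either, as stated below. Skeletal muscle genes, 16 on the array, averaged 5.90 in Npc1+/+ mouse 4 and 5.17 to 5.45 in the other 7 mice.

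Npc1 itself was measured at 8.54, 8.69, 8.63 and 8.78 in Npc1-/- mice 1 to 4 and at 9.80, 9.70, 9.83 and 9.76 in Npc1+/+ mice 1 to 4. The groups did not overlap, and the difference was -1.11 ± 0.16 (limma, adjusted p = 1.3e-06), a 2.16-fold lower transcript level that matched the labels in each mouse. Where the probe set lies relative to the mutation is not given in the sources used here. The difference without Npc1+/+ mice 1 and 2 was -1.13.

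Of 12638 genes tested, 1989 passed an adjusted p of 0.05 in limma, which is 15.7%. Of these 1125 were higher in Npc1-/- liver (8.9% of the genes tested) and 864 were lower (6.84%). At least a 2-fold change was reached by 84 of the higher and 75 of the lower genes. Without Npc1+/+ mice 1 and 2 the count fell to 1015 genes, with 641 higher (5.07%) and 374 lower (2.96%). List counts below with all 8 mice stand against 8.9% higher and 6.84% lower, and those without these 2 mice against 5.07% and 2.96%. All 4 Npc1-/- values lay above all 4 Npc1+/+ values in 1149 genes (9.09%) and below them in 1244 (9.84%), counts that use no test. Of the calls, 606 higher and 337 lower ones were made in both fits, and no gene was called in opposite directions. The 8 fits that each left out 1 mouse shared 1028 of the calls. Between 1354 and 1918 genes passed in these fits, fewest without Npc1-/- mouse 3. The median difference over all genes tested was -0.01. In 198 of the 1125 higher genes the Npc1+/+ mean lay below 5.54, the median of all values. In 44 of the 864 lower genes the Npc1-/- mean lay below it. No detection calls came with the table, so a fold change that starts or ends near that level may be understated.

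**Figure D1:**
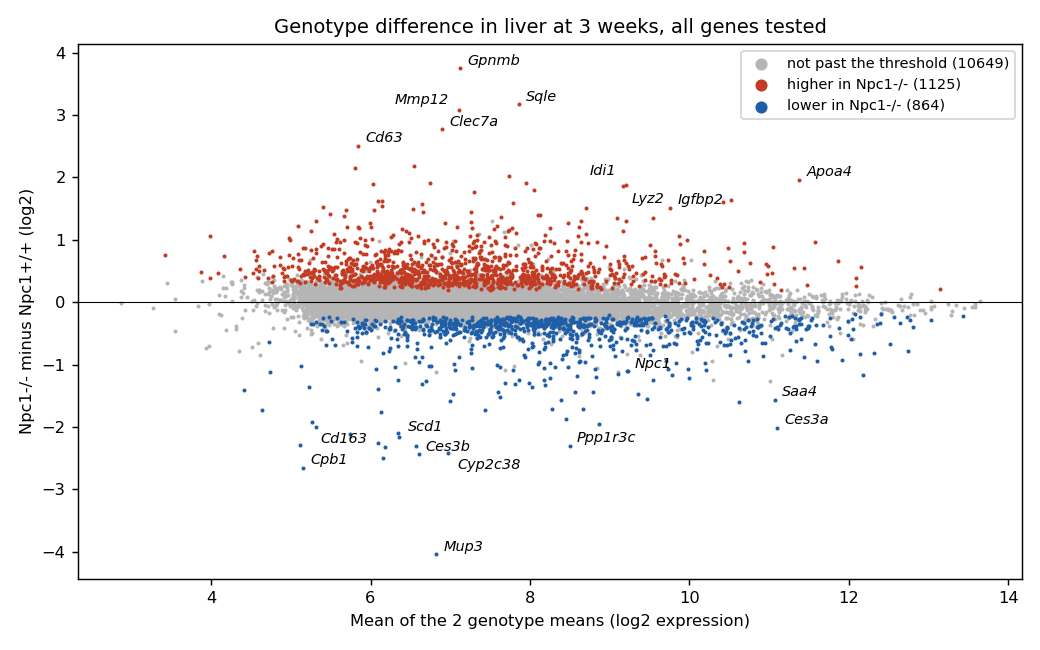
Difference between Npc1-/- and Npc1+/+ liver at 3 weeks (vertical axis, log2 units) against the mean log2 level over the 8 mice (horizontal axis), with 1 point per gene tested; coloured points are the 1125 genes higher and 864 genes lower in Npc1-/- at an adjusted p of 0.05. Gpnmb, Sqle and Mmp12 stand more than 3 log2 units above 0, and Mup3 stands more than 4 below.

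Several of the genes with the highest rise are known from macrophages that have taken up lipid. Gpnmb, a transmembrane glycoprotein of such macrophages, was measured at 8.82, 8.73, 9.41 and 9.06 in the 4 Npc1-/- mice and at 5.43, 5.13, 5.38 and 5.07 in the 4 Npc1+/+ mice. All Npc1-/- values lay more than 3 units above all Npc1+/+ values, which lay below 5.54, the median of all values in the table. Mmp12, the macrophage elastase, stood at 8.32, 8.43, 8.93 and 8.95 in Npc1-/- mice against 5.44, 5.68, 5.59 and 5.58. Clec7a, the receptor dectin-1, followed with 7.95, 8.25, 8.52 and 8.42 against 5.55, 5.73, 5.71 and 5.06. Neither gene overlapped between the genotypes, and the differences were 3.09 ± 0.19 and 2.77 ± 0.18 (limma, adjusted p = 1.72e-16 and 1.42e-15).

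Of 18 genes of lipid-laden macrophages tested, 15 rose and none fell, against 8.9% of all genes that rose. Their median difference was 1.00, and without Npc1+/+ mice 1 and 2 it was 1.22 with 14 higher genes. Lgals3, a secreted lectin, was at 8.00, 8.11, 8.42 and 8.18 in Npc1-/- mice and at 6.47, 6.27, 6.39 and 6.52 in Npc1+/+ mice, a difference of 1.77 ± 0.14 (limma, adjusted p = 1.16e-12). The integrin Itgax (CD11c) rose by 1.48, the inhibitory receptors Lilr4b and Lilrb4a by 2.15 and 1.62, the fatty acid carrier Fabp5 by 1.06, and the lipid receptor Trem2 by 0.58. Lilr4b and Lilrb4a are near-identical copies, as are Gpr137b and Gpr137b-ps, and the array may not separate them. Averaged over the list, the level was 8.21 to 8.55 in the Npc1-/- mice and 6.92 to 7.07 in the Npc1+/+ mice.

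Genes that mark macrophages in general rose in 14 of 24 cases, with none lower and a median of 0.39. Lyz2, a lysozyme of myeloid cells, lay between 9.76 and 10.40 in Npc1-/- mice and stood at 8.57, 8.50, 8.06 and 7.81 in Npc1+/+ mice. Cd68, a glycoprotein of macrophage lysosomes, was at 8.75, 8.75, 9.21 and 9.13 against 7.36, 7.35, 7.02 and 6.89. In both genes the Npc1+/+ mice with the pancreas signal were the higher 2 of their group, and the differences were larger without them, 2.16 against 1.86 for Lyz2 and 2.00 against 1.80 for Cd68. Mpeg1, a pore-forming protein of phagocytes, rose by 1.30, and Laptm5 by 1.40. In whole liver, more macrophages and more RNA of these genes per macrophage cannot be told apart.

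Resident Kupffer cell genes did not move in 1 direction. Of 9 tested, 2 rose, 2 fell and 5 did not pass, and without Npc1+/+ mice 1 and 2 the iron exporter Slc40a1 also rose, which gave 3 higher and 2 lower. Cd163, a scavenger receptor for haemoglobin, was at 5.66, 4.98, 4.49 and 4.74 in Npc1-/- mice and at 7.28, 7.23, 7.49 and 6.87 in Npc1+/+ mice. It fell by 2.25 (SE 0.18; limma, adjusted p = 9.04e-13), to levels near or below the median of the array, with no overlap. Folr2 fell by 0.75, while Cd5l and Clec1b rose by 0.81 and 0.66. Clec4f, Timd4, Vsig4 and Marco had differences of -0.33, -0.23, -0.19 and -0.21 that did not pass (adjusted p from 0.0951 to 0.485 in limma). At 11 weeks the Clec4f and Timd4 differences were -2.13 and -1.05, and both passed there.

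**Figure D2:**
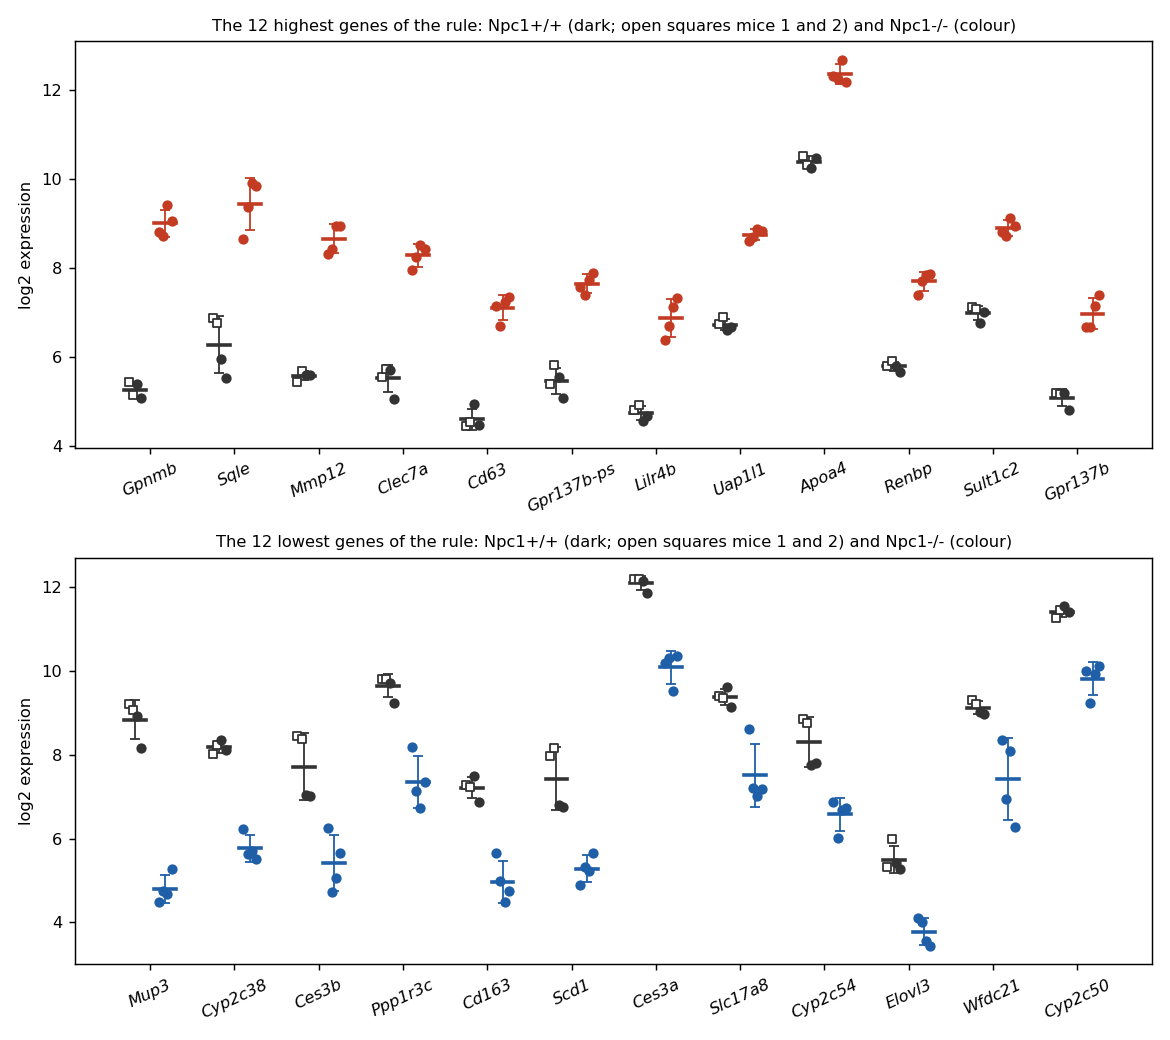
Log2 level (axis) in each of the 8 mice for the 12 genes with the highest rise and the 12 with the deepest fall; points are mice, coloured by genotype, open squares are Npc1+/+ mice 1 and 2 with the pancreas signal, and bars give the group mean ± SD (n = 4). The 4 Npc1-/- points lie apart from the 4 Npc1+/+ points in each gene shown, for example 8.73 to 9.41 against 5.07 to 5.43 for Gpnmb.

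Other genes with a large rise lay outside the macrophage lists. Uap1l1, a relative of the enzyme that makes UDP-N-acetylglucosamine, was at 8.60, 8.69, 8.89 and 8.83 in Npc1-/- mice against 6.73, 6.89, 6.61 and 6.67, a difference of 2.03 ± 0.12 (limma, adjusted p = 1.72e-16). Renbp, an epimerase of amino sugars, was at 7.39, 7.71, 7.84 and 7.86 against 5.78, 5.91, 5.78 and 5.65 and rose by 1.92 ± 0.16 (limma, adjusted p = 7.58e-12). Neither overlapped between genotypes. Gpr137b, a lysosomal membrane protein, rose by 1.89, and its pseudogene copy Gpr137b-ps by 2.19.

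Lysosomal genes rose over a wide front and by smaller steps. Among soluble hydrolases 15 of 24 tested rose and none fell, with a median of 0.31, and among cathepsins and their inhibitor 8 of 14 rose and none fell, with a median of 0.38. The counts were 10 and 6 without Npc1+/+ mice 1 and 2, with medians of 0.32 and 0.38. Hexa, a subunit of the enzyme that degrades ganglioside GM2, was at 10.16, 10.24, 10.30 and 10.19 in Npc1-/- mice and at 9.04, 8.94, 8.74 and 8.79 in Npc1+/+ mice. Ctsd, the aspartic protease cathepsin D, was at 11.35, 11.43, 11.68 and 11.50 against 10.68, 10.55, 10.53 and 10.62. Neither gene overlapped between genotypes, and the differences were 1.34 ± 0.09 and 0.89 ± 0.09 (limma, adjusted p = 2.06e-14 and 1.38e-10).

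Of 23 genes of sphingolipid turnover 7 rose, none fell and 16 did not pass, against 8.9% of all genes that rose. The median was 0.07, and 5 rose without Npc1+/+ mice 1 and 2, against 5.07% of all genes. Among the risers were the ceramidase Asah1 and the galactosylceramidase Galc, each by 0.67, and Sgms2, a sphingomyelin synthase, by 0.90. Of the lysosomal genes outside that list, Psap, the precursor of the saposin activators, rose by 0.56 and the glucuronidase Gusb, which acts on glycosaminoglycans, by 0.73. The cysteine proteases Ctss and Ctsz rose by 1.34 and 0.96, and the asparaginyl protease Lgmn by 0.83. Lipa, the acid lipase that releases the cholesterol NPC1 would carry, was at 10.84, 11.16, 11.06 and 11.08 in Npc1-/- mice against 10.88, 10.75, 10.92 and 10.86. The groups overlapped, and the difference of 0.18 ± 0.10 did not pass (limma, adjusted p = 0.229).

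In the lysosomal membrane 9 of 19 genes rose, and Npc1 alone fell. Npc2, the partner that hands cholesterol to NPC1, was at 8.64, 8.68, 8.91 and 8.68 against 8.13, 8.07, 8.06 and 8.15, a difference of 0.62 ± 0.08 (limma, adjusted p = 4.94e-07) with no overlap. Cd63, a tetraspanin of late endosomes, was at 7.14, 6.70, 7.23 and 7.34 against 4.44, 4.53, 4.93 and 4.47, so that it went from below to above the median of the array. Lamp2, an abundant structural protein of the same membrane, had a difference of -0.17 that did not pass (limma, adjusted p = 0.161). Of 16 proton pump subunits 7 rose and none fell, led by Atp6v0d2, the subunit of macrophages and osteoclasts, at 0.94, while the widely used Atp6v1a rose by 0.57.

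Of 19 genes of autophagy and MiT/TFE factors, which control lysosomal genes, 4 rose and 2 fell, against 8.9% and 6.84% of all genes. Without Npc1+/+ mice 1 and 2, against 5.07% of all genes that rose, 2 rose and none fell. Those 2 act together on lysosomal nutrient signalling. Rragd, a Rag GTPase, was at 6.54, 6.68, 6.87 and 7.04 against 5.41, 5.20, 5.45 and 5.17, and rose by 1.47 ± 0.14 (limma, adjusted p = 1.48e-10). Fnip2, a folliculin partner, was at 8.65, 8.80, 9.57 and 9.45 against 7.77, 8.07, 7.89 and 7.62, and rose by 1.28.

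Several lists share members. Cd63, Atp6v0d2 and Ctsk count among both the lysosomal and the lipid-laden macrophage genes, and Cd68, Laptm5 and Ctss among both the lysosomal and the general macrophage genes. The part that macrophage number has in the lysosomal rise was not tested.

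To show the letters that motif counts rest on, 250 bases before the RefSeq start of 2 lysosomal genes that rose are given, read 5′ to 3′ on the gene's strand (GRCm38.p6). Capitals mark TCACGTGA, the palindrome that MiT/TFE factors are known to bind, and CACGTG, its core, found on either strand. Gla, the alpha-galactosidase that degrades globosides, has its window at chrX:134601006-134601255 on the minus strand and holds 2 copies. That of Ctsd is at chr7:142387828-142388077 on the minus strand.
Gla: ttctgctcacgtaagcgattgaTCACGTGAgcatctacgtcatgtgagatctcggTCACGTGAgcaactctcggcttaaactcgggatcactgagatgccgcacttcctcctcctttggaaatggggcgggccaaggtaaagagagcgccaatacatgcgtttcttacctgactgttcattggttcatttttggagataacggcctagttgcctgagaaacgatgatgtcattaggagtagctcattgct
Ctsd: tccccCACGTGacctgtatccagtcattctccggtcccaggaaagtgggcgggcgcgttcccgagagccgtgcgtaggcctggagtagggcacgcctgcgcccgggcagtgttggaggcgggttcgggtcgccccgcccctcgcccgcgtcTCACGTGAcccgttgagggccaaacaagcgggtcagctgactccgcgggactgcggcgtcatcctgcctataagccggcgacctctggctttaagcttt
Within 250 bases before and 50 after the start, TCACGTGA was present in 6 of 33 lysosomal genes that rose and have a window, namely Gla, Ctsa, Ctsd, Mcoln1, Cln3 and Atp6v1a, and in 4 of 26 that did not rise. Among all genes 1.12% held it. The shorter CACGTG, which lies inside it, was in 11 of the 33, in 9 of the 26 and in 8.09% of all genes. The motif was thus about as frequent in lysosomal genes that did not rise as in those that did. Gla, with 2 copies, rose by 0.44, and Ctsd, with 1, by 0.89. The Gla call was lost when Npc1-/- mouse 3 or Npc1+/+ mouse 3 was left out (limma, adjusted p = 0.0625 and 0.0831), and that of Cln3, which rose by 0.40, without Npc1-/- mouse 4 or Npc1+/+ mouse 3 (adjusted p = 0.0561 and 0.0666). Mcoln1, a lysosomal calcium channel, had a difference of 0.31, and leaving out any of 6 of the 8 mice ended its call (limma, adjusted p up to 0.12).

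Enzymes of cholesterol synthesis rose from its early to its late steps. In the mevalonate part 6 of 7 tested genes rose and none fell, with a median of 0.87. From squalene to cholesterol 8 of 11 rose and 1 fell, with a median of 1.08. The counts without Npc1+/+ mice 1 and 2 were 5 of 7 and 9 of 11, with none lower and larger medians of 0.99 and 1.31. Sqle, the squalene epoxidase and a rate-limiting step, was at 8.65, 9.37, 9.91 and 9.85 in Npc1-/- mice and at 6.88, 6.75, 5.95 and 5.52 in Npc1+/+ mice. No values overlapped, and Sqle rose by 3.17 ± 0.36, which is 9-fold (limma, adjusted p = 1.12e-08).

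The order of the mice recurred in other enzymes of the pathway. Idi1, the isopentenyl diphosphate isomerase, was at 9.22, 10.27, 10.55 and 10.50 against 8.72, 8.81, 7.78 and 7.73. Msmo1, the sterol C4-methyl oxidase, was at 10.64, 11.16, 11.85 and 11.68 against 10.13, 10.04, 9.42 and 9.22. Cyp51, the lanosterol demethylase, was at 7.63, 8.62, 9.11 and 8.96 against 7.45, 7.57, 6.56 and 6.39. In Sqle, Idi1, Msmo1 and Cyp51, Npc1-/- mouse 1 was the lowest of its group and Npc1+/+ mice 1 and 2, those with the pancreas signal, were the highest of theirs. Differences without these 2 mice were larger, at 3.71 for Sqle, 2.38 for Idi1, 2.02 for Msmo1 and 2.11 for Cyp51. What part the pancreas tissue has in the levels of these 2 mice was not tested.

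Further enzymes of the pathway rose as well. Fdps, which makes farnesyl diphosphate, overlapped between genotypes because of Npc1-/- mouse 1 at 9.13 and Npc1+/+ mouse 1 at 9.16, yet rose by 1.14. Nsdhl, Lss and Dhcr7 rose by 1.19, 1.15 and 1.08. Hmgcs1, the first committed step, was at 10.13, 10.91, 11.36 and 11.29 against 10.07, 9.93, 10.19 and 10.03 and had a difference of 0.87 ± 0.27 (limma, adjusted p = 0.0218). Its call was lost without Npc1-/- mouse 3 (0.103), Npc1-/- mouse 4 (0.0828) or Npc1+/+ mouse 2 (0.0613), and without both Npc1+/+ mice 1 and 2 (adjusted p = 0.146). Ebp, a sterol isomerase, was the gene on the other side at -0.37. That call was lost without Npc1-/- mouse 2 or 3 or Npc1+/+ mouse 1 or 2 (adjusted p from 0.0516 to 0.131).

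Regulators moved less. Srebf2, which encodes SREBP-2, was at 8.57, 8.68, 8.87 and 8.88 against 8.15, 8.09, 8.16 and 8.22, and rose by 0.60 ± 0.11 (limma, adjusted p = 1.53e-04) with no overlap. Tmem97, a sterol-responsive protein that binds NPC1, rose by 0.92. Insig1, a sterol-sensitive brake on SREBP transport, had a difference of 0.36 with overlapping groups that did not pass (limma, adjusted p = 0.347). Abcg1, a sterol exporter that LXR controls, rose by 0.69, the only 1 of 8 LXR targets that passed, against 8.9% of all genes that rose. Abca1, the exporter of the same receptor with wider expression, had a difference of -0.13 (adjusted p = 0.433). Nceh1, a hydrolase of cholesterol esters outside the lysosome, was at 8.06, 7.98, 8.29 and 8.23 against 7.15, 7.08, 6.84 and 6.77, and rose by 1.18 ± 0.16 (limma, adjusted p = 5.87e-07).

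The promoters of 4 sterol genes are shown because their genes rose together and carry the CCAAT box, which marks binding of NF-Y, a known partner of SREBP-2. Each is the 250 bases before the RefSeq start on the gene's strand (GRCm38.p6), and capitals mark CCAAT on either strand (ATTGG when reversed) and, in Hmgcs1, the sterol element TCACNCCAC. The window of Hmgcs1 is at chr13:119690101-119690350 on the plus strand, Idi1 at chr13:8885356-8885605 on the plus strand, Cyp51 at chr5:4104698-4104947 on the minus strand, and Msmo1 at chr8:64733579-64733828 on the minus strand.
Hmgcs1: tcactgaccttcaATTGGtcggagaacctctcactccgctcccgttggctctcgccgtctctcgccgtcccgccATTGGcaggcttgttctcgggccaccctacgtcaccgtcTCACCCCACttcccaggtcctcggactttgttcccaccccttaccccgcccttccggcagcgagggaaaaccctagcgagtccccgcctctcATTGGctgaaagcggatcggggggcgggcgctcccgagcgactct
Idi1: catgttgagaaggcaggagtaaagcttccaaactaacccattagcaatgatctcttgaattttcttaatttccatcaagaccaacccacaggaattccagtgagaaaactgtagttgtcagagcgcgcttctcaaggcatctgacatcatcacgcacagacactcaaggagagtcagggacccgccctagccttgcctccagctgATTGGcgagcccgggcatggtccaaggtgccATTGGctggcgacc
Cyp51: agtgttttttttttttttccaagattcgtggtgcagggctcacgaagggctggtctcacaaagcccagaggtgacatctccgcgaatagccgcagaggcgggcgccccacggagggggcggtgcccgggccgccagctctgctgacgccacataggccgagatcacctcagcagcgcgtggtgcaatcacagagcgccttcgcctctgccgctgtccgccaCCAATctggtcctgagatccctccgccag
Msmo1: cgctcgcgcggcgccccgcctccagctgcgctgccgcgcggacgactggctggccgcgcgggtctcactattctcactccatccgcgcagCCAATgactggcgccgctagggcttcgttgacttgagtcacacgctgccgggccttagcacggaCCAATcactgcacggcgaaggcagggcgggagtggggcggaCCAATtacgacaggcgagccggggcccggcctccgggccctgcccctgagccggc
Within 250 bases before and 50 after the start, CCAAT was present in 13 of 14 higher sterol genes with a window and in 7 of 7 that did not rise, against 41.1% of all genes. TCACNCCAC was found in Hmgcs1 alone of these 21, and in 1.44% of all genes. The CCAAT count therefore did not separate the sterol genes that rose from those that did not.

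Of 14 genes of fatty acid synthesis none rose and 1 fell, a share near the 6.84% of all genes that fell, with a median of -0.11. The gene that fell was Scd1, the stearoyl-CoA desaturase, at 4.88, 5.33, 5.24 and 5.66 in Npc1-/- mice against 7.97, 8.17, 6.81 and 6.77, a difference of -2.15 ± 0.27 (limma, adjusted p = 9.17e-08). The Npc1+/+ mice with the pancreas signal were again the higher 2, and the difference without them was -1.51. Fasn, the fatty acid synthase, was at 8.81, 8.92, 9.55 and 9.50 against 9.29, 9.18, 8.75 and 8.69. Its groups overlapped, and the difference of 0.22 did not pass (limma, adjusted p = 0.668).

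Desaturases and elongases of other fatty acids were mixed, with 4 of 8 higher and 1 lower. Fads1 and Fads2, which make polyunsaturated fatty acids, rose by 0.55 and 0.66, and Elovl7 rose by 1.55. Elovl3, an elongase with higher levels in adult males, fell by 1.72, and its Npc1-/- levels of 3.44 to 4.11 were far below the median of the array. Of 18 genes of fatty acid oxidation, 2 rose and none fell, a count near the 8.9% of all genes that rose, with a median of 0.00. Apoa4, an apolipoprotein, was at 12.33, 12.24, 12.68 and 12.18 against 10.52, 10.31, 10.26 and 10.48, and rose by 1.97 ± 0.22 (limma, adjusted p = 4.78e-09). Plin3, a lipid droplet coat protein, rose by 0.73.

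Enzymes by which hepatocytes handle drugs and hormones were lower. Of 33 xenobiotic cytochrome P450 genes tested 15 fell and none rose, against 6.84% of all genes that fell, with a median of -0.43. The count was again 15 without Npc1+/+ mice 1 and 2. Cyp2c38 was at 6.24, 5.63, 5.70 and 5.52 in Npc1-/- mice and at 8.02, 8.23, 8.36 and 8.11 in Npc1+/+ mice, and fell by 2.41 (SE 0.25; limma, adjusted p = 1.01e-09). Cyp2c50 was at 9.99, 9.24, 9.93 and 10.12 against 11.27, 11.46, 11.55 and 11.40, and fell by 1.60 (SE 0.14). Neither gene overlapped between genotypes. Cyp2c54 fell by 1.72, or by 1.21 without the 2 pancreas-bearing mice. Cyp4f14, a lipid hydroxylase, fell by 1.54. Cyp2e1 and Cyp3a11, abundant enzymes of alcohol and drug metabolism, had differences of -0.20 and -0.32 that did not pass (limma, adjusted p = 0.0527 and 0.0963).

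Of 39 conjugating enzymes tested 19 fell and 2 rose, with a median of -0.37, and 12 fell and 1 rose without Npc1+/+ mice 1 and 2. The carboxylesterase Ces3a was at 10.21, 10.31, 9.52 and 10.37 against 12.21, 12.19, 12.16 and 11.87, a difference of -2.01 ± 0.35 (limma, adjusted p = 4.2e-05). Its neighbour Ces3b was at 6.25, 4.71, 5.06 and 5.66 against 8.45, 8.38, 7.04 and 7.02, with a difference of -2.30 that was -1.61 without Npc1+/+ mice 1 and 2. The glucuronosyltransferase Ugt2a3 fell by 1.21. Sult1c2, a sulfotransferase, moved the other way, at 8.80, 8.73, 9.13 and 8.94 against 7.11, 7.08, 6.77 and 7.01, and rose by 1.91 ± 0.20 (limma, adjusted p = 1.43e-09). Within the Cyp2c, Ces, Sult and Mup families, sequences are close enough that probes may read more than 1 member.

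Mup3, a major urinary protein, had the deepest fall of the genes that passed. It was at 4.50, 4.74, 4.69 and 5.28 in Npc1-/- mice and at 9.21, 9.06, 8.93 and 8.16 in Npc1+/+ mice, a difference of -4.04 ± 0.33 (limma, adjusted p = 2.04e-12), or 16.5-fold. All Npc1-/- levels lay below the median of the array. Of 11 genes with higher levels in male than female liver 6 fell and none rose, with a median of -0.70, against 6.84% of all genes that fell. Without Npc1+/+ mice 1 and 2, 4 fell, against 2.96% of all genes. All mice were female. Of 12 female-biased genes 2 fell, Cyp2b13 by 1.44 and Hao2 by 1.24, and 1 rose. Igf1, the circulating growth factor of the liver, had a difference of -0.14 (limma, adjusted p = 0.439), and its binding protein Igfbp2 was at 10.46, 10.33, 10.93 and 10.34 against 9.20, 8.91, 8.91 and 8.97. Igfbp2 rose by 1.52 ± 0.19 (limma, adjusted p = 4.68e-08).

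Of 23 genes of the urea cycle and amino acid catabolism 13 fell, none rose and 10 did not pass, with a median of -0.46. The share of all genes that fell was 6.84%. Without Npc1+/+ mice 1 and 2, 10 fell, against 2.96% of all genes. Tdo2, the tryptophan dioxygenase, was at 12.21, 11.80, 11.31 and 11.60 against 12.50, 12.48, 12.67 and 12.58, and fell by 0.82 (SE 0.16; limma, adjusted p = 2.76e-04). Hal, the histidine ammonia-lyase, fell by 0.75, Otc of the urea cycle by 0.60, and Cbs of cysteine synthesis by 0.66. Arg1, the arginase, had a difference of -0.32 that did not pass (adjusted p = 0.0892). Ppp1r3c, a glycogen-targeting subunit of protein phosphatase, was at 8.19, 7.14, 6.73 and 7.34 against 9.81, 9.82, 9.73 and 9.25, and fell by 2.30 (SE 0.33; limma, adjusted p = 1.41e-06).

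Plasma proteins were lower in part. The lists here stand against 6.84% of all genes that fell and 8.9% that rose, or 2.96% and 5.07% without Npc1+/+ mice 1 and 2. Of 20 acute-phase genes 6 fell and 1 rose, with a median of -0.11. Saa4, a constitutive serum amyloid protein, was at 10.63, 10.51, 9.98 and 10.05 against 11.58, 11.57, 12.19 and 12.07, and fell by 1.56 (SE 0.19; limma, adjusted p = 3.13e-08). Fga, a fibrinogen chain, fell by 0.69. Of 26 complement and coagulation genes 5 fell and 1 rose, and C9, which completes the membrane attack complex, fell by 1.32. It was the only 1 of these 26 to pass without Npc1+/+ mice 1 and 2. Of 20 hepatocyte transcription factors and nuclear receptors, 2 fell and none rose, with a median of -0.01. That count lies near the 6.84% of all genes that fell. Hnf4a, the central factor of hepatocyte identity, stood at 10.18 to 10.23 in Npc1-/- mice against 10.58 to 10.73 in Npc1+/+ mice and fell by 0.45. Bile acid genes gave 7 lower and 1 higher of 25, and 3 lower and none higher without Npc1+/+ mice 1 and 2. The share of all genes that were lower also went down between these fits, from 6.84% to 2.96%. Cyp7a1, the rate-limiting enzyme of that pathway, ranged from 8.42 to 10.78 in Npc1-/- mice and from 9.06 to 10.20 in Npc1+/+ mice, and its difference of 0.34 ± 0.52 did not pass (limma, adjusted p = 0.732).

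Further genes among the 15 deepest falls belong to none of these groups. Slc17a8, a vesicular glutamate transporter, was at 8.63, 7.22, 7.03 and 7.18 in Npc1-/- mice against 9.40, 9.37, 9.61 and 9.15, and fell by 1.87 (SE 0.28; limma, adjusted p = 4.62e-06). Lrtm1 was at 8.63, 7.15, 7.10 and 7.57 against 9.30, 9.10, 9.25 and 9.04, and fell by 1.56. In both genes Npc1-/- mouse 1 was the highest of its group, though still below all Npc1+/+ mice. Wfdc21 fell by 1.71, with Npc1-/- mice spread from 6.27 to 8.35 and Npc1+/+ mice from 8.98 to 9.32.

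Genes of the general machinery are read against the 15.7% of all genes that passed in either direction. None of 20 ribosomal protein genes passed, with a median of 0.03, and 1 of 29 nuclear-encoded respiratory chain genes did. None of 13 p53 targets passed, and of 25 genes of amino acid response and endoplasmic reticulum stress 3 fell and 1 rose, a share near that of all genes. The riser was Atf3, a stress-induced transcription factor, at 6.64, 7.81, 7.47 and 7.20 against 6.06, 5.86, 5.75 and 5.48, with a difference of 1.50 ± 0.19 (limma, adjusted p = 1.52e-07).

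**Figure D3:**
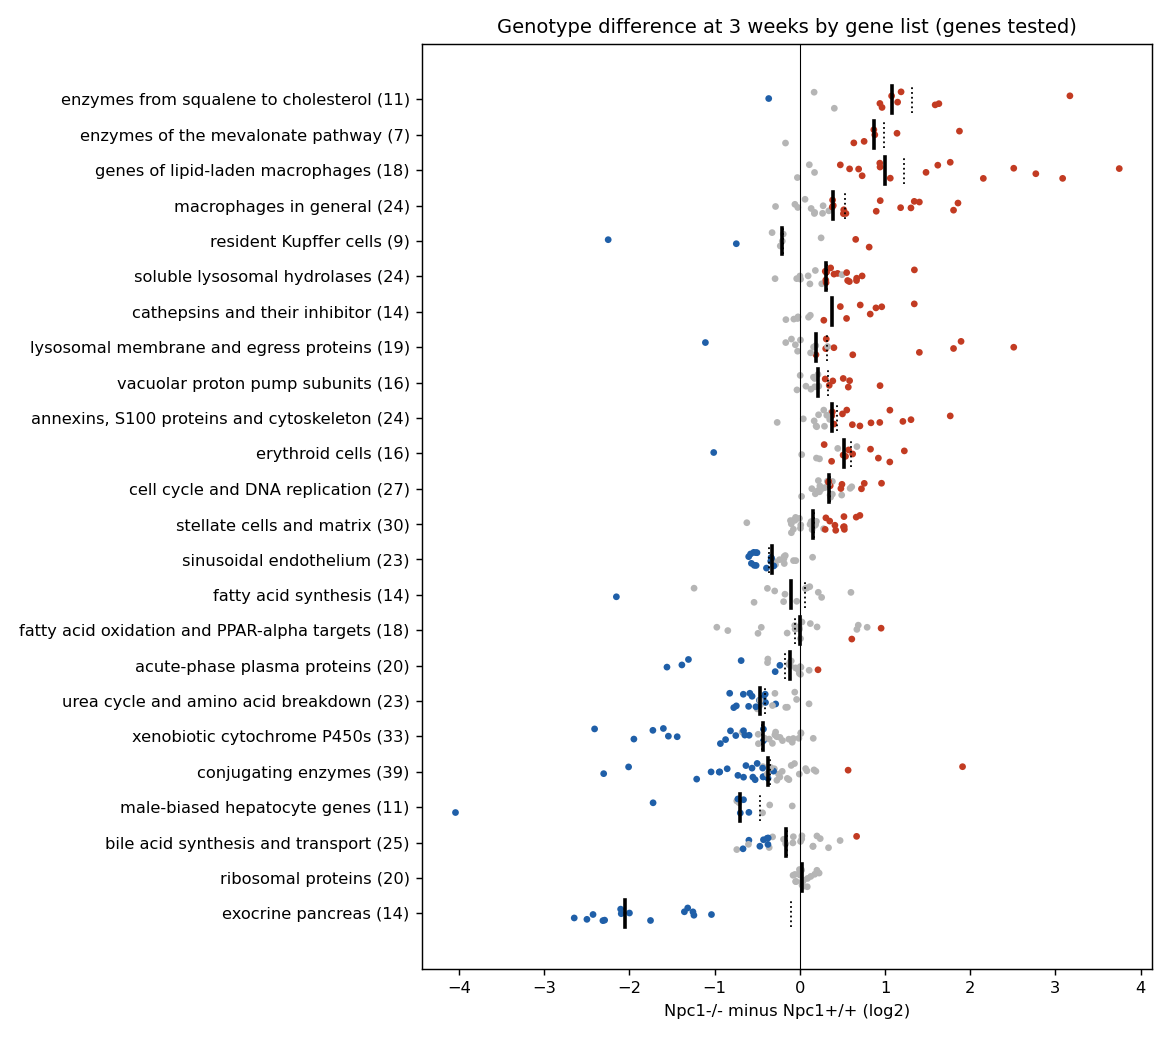
Differences between Npc1-/- and Npc1+/+ liver at 3 weeks (log2 units) for the members of 24 gene lists; each point is a gene, red if higher, blue if lower and grey if not past the adjusted p of 0.05, the solid line is the list's median and the dotted line its median without Npc1+/+ mice 1 and 2. Lipid-laden macrophage genes centre on 1.00 and the squalene-to-cholesterol genes on 1.08, while P450 genes centre on -0.43; the pancreas list moves from -2.05 to -0.11 without the 2 mice.

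Of 14 cytokine and inflammatory signalling genes 6 rose and none fell, and the same numbers passed without Npc1+/+ mice 1 and 2. Vcam1, an adhesion molecule for leukocytes, was at 9.69, 9.40, 9.30 and 9.43 against 8.15, 8.06, 8.10 and 7.50, and rose by 1.50 ± 0.18 (limma, adjusted p = 5.33e-08). Of 14 genes of chemokines and their receptors 6 rose and 2 fell, or 6 and none without Npc1+/+ mice 1 and 2. The chemokines Ccl3, Ccl6 and Cxcl10 rose by 0.99, 0.65 and 1.15, the last with overlap because Npc1-/- mouse 1 stood at 6.14. Il1b was at 4.89 to 5.31 against 5.07 to 5.41, with no difference that passed (-0.12; limma, adjusted p = 0.784). Of the NADPH oxidase subunits, Cybb and Cyba rose by 1.18 and 0.99. Among markers of other blood cells, 2 of 15 neutrophil and 2 of 7 B cell genes tested rose and none fell, and 2 of 8 T and NK cell genes rose and 1 fell. Of these Ccl5, a T cell chemokine, alone also passed without Npc1+/+ mice 1 and 2. In interferon response genes 2 of 15 rose, and 1 without those mice. Over all genes 8.9% rose, so the neutrophil and interferon counts lie near that share.

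Sinusoidal endothelial genes were lower by small amounts. Of 23 tested 13 fell and none rose, against 6.84% of all genes that fell, with a median of -0.33. Without Npc1+/+ mice 1 and 2, 8 fell, against 2.96% of all genes. Averaged over the list the level was 7.47 to 7.77 in Npc1-/- mice and 7.94 to 7.99 in Npc1+/+ mice. Tek, the angiopoietin receptor, was at 7.06, 7.03, 7.12 and 6.98 against 7.69, 7.67, 7.55 and 7.59, and fell by 0.58 (SE 0.10; limma, adjusted p = 2.07e-05). Cdh5, the endothelial cadherin, fell by 0.39 and Oit3 by 0.57, whereas Pecam1, Stab2 and Lyve1 had differences of -0.17, -0.18 and -0.30 that did not pass (adjusted p from 0.132 to 0.23).

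Stellate cell and matrix genes gave 11 of 30 higher and none lower, and 4 higher without Npc1+/+ mice 1 and 2. The share of all genes that were higher was 8.9%, and 5.07% without those mice. Col1a1, the main chain of fibrillar collagen, was at 9.15, 9.40, 9.64 and 9.57 against 8.59, 8.52, 8.81 and 9.20. Its groups overlapped, and the difference of 0.66 (limma, adjusted p = 4.74e-04) became 0.44 without those mice (adjusted p = 0.0854). Col3a1 had a difference of 0.17 that did not pass (adjusted p = 0.35). Of 24 annexins, S100 and cytoskeletal genes 13 rose and none fell. Anxa5, a phospholipid-binding protein, was at 10.24, 10.61, 10.35 and 10.41 against 9.33, 9.44, 9.30 and 9.31, and rose by 1.06 ± 0.11 (limma, adjusted p = 1.96e-09). Lgals1 and Capg rose by 1.30 and 1.21. Lgals3 and Cd9 of this list are also lipid-laden macrophage genes. The epithelial genes Krt8, Krt18 and Cdh1 rose by 0.95, 1.00 and 1.39.

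Genes of developing red cells were higher in Npc1-/- liver. Of 16 tested 10 rose and 1 fell, with a median of 0.52, against 8.9% of all genes that rose. Without Npc1+/+ mice 1 and 2, 8 rose and 1 fell, against 5.07% that rose among all genes. Averaged over the list the level was 6.19 to 6.80 in Npc1-/- mice, highest in mouse 4, and 5.83 to 6.08 in Npc1+/+ mice. Without Npc1-/- mouse 4 the calls of Ermap, Gata1, Hemgn, Rhd and Kel were lost (limma, adjusted p from 0.0603 to 0.252). Slc4a1, the anion exchanger of red cells, was at 8.39, 8.03, 7.63 and 8.76 against 7.27, 6.82, 6.73 and 7.08, and rose by 1.23 ± 0.21 (limma, adjusted p = 2.63e-05). Car2 and Rhag rose by 0.92 and 1.06, although Rhag stayed below the median of the array in all mice. Car1, a carbonic anhydrase also made outside red cells, was the gene that fell, by 1.01.

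Of 27 cell cycle genes 8 rose and none fell, and 3 rose without Npc1+/+ mice 1 and 2. Among all genes 8.9% rose, and 5.07% without those mice. Averaged over the list, Npc1-/- mouse 1 stood at 5.85, within the Npc1+/+ range of 5.79 to 5.94. Npc1-/- mice 2 to 4 stood at 6.15, 6.48 and 6.49. Without Npc1-/- mouse 3 the calls of Aurka, Bub1b, Kif11, Pcna and Rrm2 were lost (limma, adjusted p from 0.0678 to 0.168). Mki67, the proliferation antigen Ki-67, was at 6.68, 7.00, 6.87 and 7.27 against 5.90, 5.99, 5.98 and 6.12, a difference of 0.96 ± 0.16 (limma, adjusted p = 2.29e-05) with no overlap. Of 15 fetal and imprinted genes 7 rose and none fell, against 8.9% of all genes that rose. Gpc3, a fetal glypican, was at 6.81, 7.00, 8.24 and 7.67 against 5.50, 5.86, 5.96 and 6.09, and Igf2bp3, a fetal RNA-binding protein, rose by 0.85. Afp, the fetal plasma protein, was at 6.24, 5.69, 6.01 and 5.74 against 5.38, 5.28, 7.48 and 5.65. Its groups overlapped, Npc1+/+ mouse 3 was the highest, and the difference of -0.03 did not pass (limma, adjusted p = 0.963).

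The genes that differed at 3 weeks were next sorted by how Npc1+/+ liver changes with age, measured between 1 and 5 weeks in mice that are not part of the 3-week comparison. Between those ages 2176 genes rose (17.2% of genes tested) and 3004 fell (23.8%). Of them 285 genes rose at least 2-fold and 453 fell at least 2-fold in Npc1+/+ liver (limma, adjusted p under 0.05). Of the 285 rising genes 106 were lower in Npc1-/- liver at 3 weeks, which is 37.2%, and 13 were higher. Of the 453 falling genes 171 were higher, which is 37.7%, and 10 were lower. Among the 7458 genes with no age change that passed, 5.66% were higher and 5.24% lower. The shares without Npc1+/+ mice 1 and 2 were 25.3% lower among the rising and 24.5% higher among the falling genes, against 1.56% and 3.06% of genes with no age change that passed. The 106 rising genes were picked for an Npc1-/- mean below the Npc1+/+ mean at 3 weeks, so only its place relative to 1 week was open. In 97 of them the Npc1-/- mean at 3 weeks lay above the Npc1+/+ mean at 1 week, and in the other 9 it did not. Of the 171 falling genes, picked for a higher Npc1-/- mean at 3 weeks, 156 had that mean below the Npc1+/+ mean at 1 week and 15 did not.

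**Figure D4:**
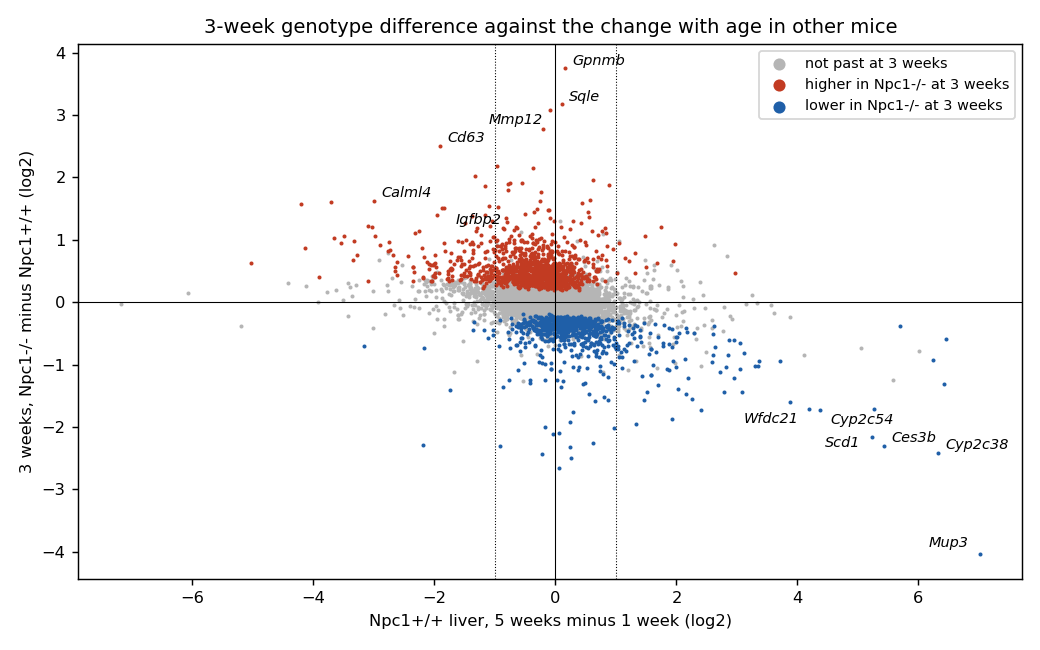
Genotype difference at 3 weeks (vertical axis, Npc1-/- minus Npc1+/+, log2 units) against the change with age in Npc1+/+ liver (horizontal axis, 5 weeks minus 1 week, log2 units), 1 point per gene tested, with dotted lines at a 2-fold age change. Genes that rise with age lie mostly below 0 (median -0.34 of 285 genes) and genes that fall with age mostly above 0 (median 0.28 of 453).

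Single genes show the levels behind these counts. Mup3 had means of 4.20, 8.84 and 11.21 in Npc1+/+ liver at 1, 3 and 5 weeks, and of 4.31, 4.80 and 8.77 in Npc1-/- liver. Cyp2c38 had means of 3.60, 8.18 and 9.93 in Npc1+/+ liver against 3.36, 5.77 and 9.09. Both genes were thus at similar low levels at 1 week, and their Npc1-/- means at 3 weeks were closer to the 1-week than to the 3-week Npc1+/+ means for Mup3 and about midway for Cyp2c38. Among genes that fall with age, Gpc3 had means of 9.70, 5.85 and 5.50 in Npc1+/+ liver against 9.98, 7.43 and 6.16. Calml4, which encodes a calmodulin-like protein, had means of 7.63, 5.29 and 4.64 against 7.46, 6.91 and 5.20.

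The difference at 3 weeks was then set against those at neighbouring ages, each measured in its own mice. Of the 1125 genes higher at 3 weeks, 649 were also higher at 5 weeks, which is 57.7% of them and 53% of the 1224 genes higher at 5 weeks (9.69% of genes tested). Of the 864 lower genes, 150 were also lower at 5 weeks, which is 17.4% of them and 41.2% of the 364 genes lower at 5 weeks (2.88%). At 1 week 202 of the higher and 131 of the lower genes were shared, out of 368 higher (2.91%) and 351 lower (2.78%). No gene higher at 3 weeks was lower at 5 weeks, and 6 lower ones were higher.

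A test of the difference between ages found 254 genes, or 2.01%, whose genotype difference at 3 weeks departed from that at 1 week (limma, adjusted p under 0.05), 193 of them upward (1.53%) and 61 downward (0.483%). The count was 131 without Npc1+/+ mice 1 and 2. Leaving out a 1-week Npc1-/- mouse with skeletal muscle signal gave 122 upward and 66 downward. Leaving out single mice gave 140 to 325 genes, with 140 without Npc1-/- mouse 3, 157 without Npc1-/- mouse 4 and 163 without Npc1+/+ mouse 2. Gpnmb had differences of 0.81 at 1 week, 3.75 at 3 weeks, 5.16 at 5 weeks and 7.12 at 11 weeks. Mmp12 and Lyz2 had differences of 0.02 and 0.03 at 1 week that did not pass, and stood at 3.09 and 1.86 at 3 weeks. Of the 18 lipid-laden macrophage genes 6 were higher at 1 week, 15 at 3 weeks and 16 at 5 weeks. For soluble lysosomal hydrolases the counts were 2, 15 and 14 of 24. For sterol genes the counts at the 3 ages were 4, 6 and 6 of 7 in the mevalonate part and 7, 8 and 7 of 11 in the later part. At 11 weeks the Idi1 difference was -0.88, which passed, and those of Msmo1 and Cyp51 were -0.32 and -0.51, which did not.

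Against 5 weeks, 101 genes (0.799%) had a different genotype effect, 29 upward (0.229%) and 72 downward (0.57%), and 34 without Npc1+/+ mice 1 and 2. With quantile scaling of the arrays the split was 44 upward and 58 downward. Leaving out single mice gave 45 to 117, with 57 without Npc1-/- mouse 3 and 54, 45 and 65 without Npc1+/+ mouse 1, 2 and 3. The genes named here kept their calls without Npc1+/+ mice 1 and 2. Slco1a1, a hepatocyte organic anion transporter, had Npc1-/- values of 3.49 to 3.61 and Npc1+/+ values of 3.57 to 4.95 at 3 weeks, a difference of -0.74 that did not pass. At 5 weeks its means were 8.63 in Npc1+/+ and 4.48 in Npc1-/- liver, so that the difference there was -4.15. Sult3a1, a sulfotransferase, lay between 2.71 and 3.10 in all 8 mice at 3 weeks and differed by -3.23 at 5 weeks. Lpl, lipoprotein lipase, had a difference of 0.17 at 3 weeks that did not pass and of 2.61 at 5 weeks. Its Npc1+/+ mean went from 10.22 at 1 week to 7.21 at 5 weeks while its Npc1-/- mean went from 10.05 to 9.82.

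Other genes differed at 3 weeks and little at 5 weeks. Igfbp2 had differences of 0.12, 1.52 and 0.06 at 1, 3 and 5 weeks, and those of Nceh1 were 0.26, 1.18 and -0.02. Ppp1r3c had differences of -0.37, -2.30 and 0.45. Scd1 changed sides, from -2.15 at 3 weeks to 1.38 at 5 weeks, and the step between these ages was -3.54 ± 0.38 (limma). Its Npc1+/+ means were 6.01, 7.43 and 11.24 at 1, 3 and 5 weeks and its Npc1-/- means 6.27, 5.28 and 12.62.

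Against the mean of the other 5 ages 769 genes (6.08%) had a different effect at 3 weeks, 279 upward (2.21%) and 490 downward (3.88%), or 414 and 469 with quantile scaling. The count was 430 without Npc1+/+ mice 1 and 2. Il7r, the interleukin-7 receptor, was at 5.07, 5.10, 5.29 and 5.22 in Npc1-/- mice against 4.54, 4.33, 4.10 and 4.45 at 3 weeks, a difference of 0.81, and its difference at 11 weeks was 4.38. Tm4sf19, a tetraspanin relative, had a difference of 0.16 at 3 weeks that did not pass and of 3.98 at 11 weeks. Dio1, the thyroid hormone deiodinase, and Paqr9 had differences of -0.04 and -0.05 at 3 weeks that did not pass, and of -3.68 and -4.32 at 11 weeks. In these 4 genes the effect at 3 weeks was small beside the later ones.

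**Figure D5:**
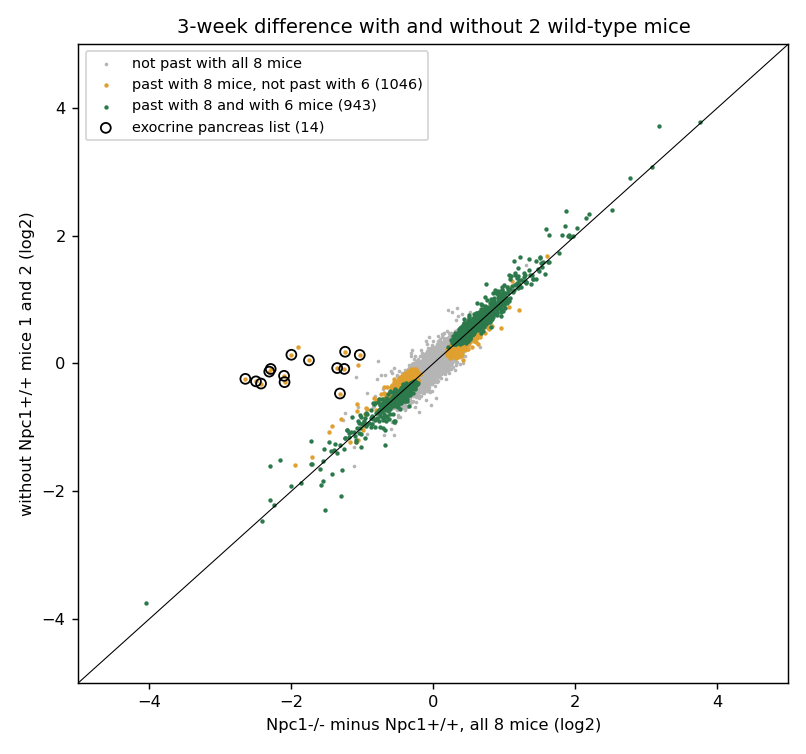
Genotype difference at 3 weeks without Npc1+/+ mice 1 and 2 (vertical axis, log2 units) against the difference with all 8 mice (horizontal axis, log2 units), 1 point per gene tested and coloured by whether it passed in both fits (943 genes) or with all 8 mice alone (1046 genes). Most points lie along the diagonal, and the 14 circled pancreas genes drop to near 0 on the vertical axis.

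Pancreas genes passed with these 2 mice and not without them. All 14 that passed the filter on low values, out of 23 on the array, passed as lower in Npc1-/- liver, and none did without Npc1+/+ mice 1 and 2. The filter kept them because they are high in a few mice, so the count of 14 carries no weight of its own. Cpb1, a pancreatic carboxypeptidase, was at 3.57, 3.93, 3.91 and 3.91 in Npc1-/- mice and at 8.94, 8.83, 4.17 and 3.98 in Npc1+/+ mice. Npc1+/+ mice 3 and 4 were close to the Npc1-/- mice, and the difference went from -2.65 to -0.24. That call was also lost when Npc1+/+ mouse 1 or 2 alone was left out (limma, adjusted p = 0.0721 and 0.0738).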

How the data were processed

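Liver RNA was labelled with biotin and hybridised to Affymetrix mouse arrays, per the labels' protocols, with 1 array for each of 8 mice at 3 weeks and for each of 40 at the other ages. The authors deposited log2 expression levels of 35556 probe sets in a single table. Per the submitters' processing notes RMA and Partek 6.5 were used, in roles not stated, and between-array scaling is not given in the sources used here. Probe sets were named through GEO's platform annotation: 21789 had 1 gene symbol, 1621 several and 12146 none listed. This gave 19938 genes, and for the 999 genes with several probe sets the 1 with the highest mean was used. The fit took the 12638 genes that exceeded 5.54 (the median value of the table) in 4 or more of 48 age-series arrays.

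Values were fitted with limma 3.58.1 (lmFit and eBayes, R 4.3.3) with 1 mean for each of 12 groups of 4 mice, and p-values were adjusted over all genes tested by the Benjamini-Hochberg method at 0.05. The spread between mice of a group, pooled over the 12 groups and so over all 6 ages, is the error in every test. The steps were tested on simulated data. Gene lists (62, with 1040 of 1147 genes matched) and the members described were chosen with earlier results of these data known, so a list's count is not independent support of its direction. The genes named are Npc1, the 15 highest and 15 lowest differences among genes past the threshold with and without Npc1+/+ mice 1 and 2 whose groups did not overlap, list members, and the 10 highest and 10 lowest of each test between ages, with clone names left out. Alternatives were a stricter threshold, a 2-fold minimum, other filters and scalings, array weights, each mouse left out, both pancreas-bearing Npc1+/+ mice left out, and the replicate number as a block. Promoter windows are RefSeq's 250 bases before to 50 after each start (GRCm38.p6, 32851 windows of 27025 genes), counted per gene over its windows, with figures and motif counts made in Python 3.11.15.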

Additional observations from a re-analysis of the deposited data

Results flagged for a closer look

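In 6 of 132 groups of 4 values, covering the genes named at 3 weeks, 1 mouse stood apart from the other 3, and chance does this in about 1 of 20 groups. The gap to the nearest mouse was 0.908 of the group's range for Gpr137b in Npc1+/+ mouse 4 (4.80 against 5.16 to 5.19), 0.842 for Ppp1r3c in Npc1+/+ mouse 4 (9.25 against 9.73 to 9.82) and 0.864 for Ces3a in Npc1+/+ mouse 4 (11.87 against 12.16 to 12.21). It was 0.856 for Socs2 in Npc1+/+ mouse 3 (6.78 against 7.19 to 7.26), 0.881 for Slc17a8 in Npc1-/- mouse 1 (8.63 against 7.03 to 7.22) and 0.957 for Cpb1 in Npc1-/- mouse 1 (3.57 against 3.91 to 3.93).

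The genotype difference at 3 weeks departed from that at 1 week in these named genes (limma, adjusted p under 0.05), given as the 3-week minus the 1-week difference in log2 units. Among macrophage and lysosomal genes it was 2.94 for Gpnmb, 3.06 for Mmp12, 1.58 for Clec7a, 1.35 for Cd63, 1.64 for Gpr137b-ps, 1.02 for Gpr137b, 1.57 for Lilr4b, 1.83 for Lyz2, 1.26 for Cd68 and 1.49 for Cd209f. It was 0.959 for Uap1l1, 1.80 for Calml4, 1.40 for Igfbp2, 1.12 for Fam102a, 0.924 for Nceh1, 0.992 for Anxa1, 1.16 for Il7r and 2.47 for A2m, whose 1-week difference was -2.84. Below 0 it was -4.15 for Mup3, -2.17 for Cyp2c38, -1.94 for Ces3b, -1.93 for Ppp1r3c, -2.42 for Scd1, -1.58 for Wfdc21, -1.30 for Lrtm1 and -1.12 for Saa4, and further -2.54 for Bex2, -1.46 for Gstm6, -1.40 for Pigr and -1.34 for Baat. At 3 weeks itself Bex2 was higher in Npc1-/- liver, by 0.50, and Pigr was lower by 0.39. Most of their step between ages thus lies in a higher Npc1-/- level at 1 week. The between-age calls of Ces3b, Ppp1r3c and Wfdc21 were lost without Npc1+/+ mice 1 and 2 (limma, adjusted p = 0.318, 0.0898 and 0.0695). This check was not made for Cd63, Cd68, Gpr137b, Uap1l1, Fam102a, Nceh1, Anxa1, Il7r, Lrtm1 and Saa4.

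Against 5 weeks the 3-week minus the 5-week difference was -1.41 for Gpnmb, -1.11 for Mmp12, -1.04 for Gpr137b, -1.03 for Lyz2, -1.23 for Anxa1 and -2.44 for Lpl. It was -1.57 for Cyp2c38, -1.11 for Cyp2c50, -1.15 for Gstm6, -2.75 for Ppp1r3c, -3.54 for Scd1, -2.01 for Aqp8, -1.86 for Saa1, -1.30 for Sytl5 and -1.24 for Ccng2. Above 0 it was 3.41 for Slco1a1, 3.24 for Serpina4-ps1, 3.22 for Sult3a1, 2.17 for Onecut1, 1.46 for Igfbp2, 1.25 for Fam102a, 1.20 for Nceh1, 1.06 for Calml4, 1.01 for Prr15l and 0.973 for Myo5c. Without Npc1+/+ mice 1 and 2 the calls of Serpina4-ps1, Onecut1, Fam102a, Myo5c, Aqp8, Saa1, Cyp2c38 and Anxa1 were lost. This check was not made for Mmp12, Gpr137b, Lyz2, Cyp2c50 and Gstm6.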

How the results depend on the processing

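Each group mean rests on 4 mice, and the spread is pooled over the 12 groups of the age series, without detection calls or depth. With the 8 arrays of 3-week mice alone, 1705 genes passed at 3 weeks. In that fit the pancreas genes Cpb1, Cpa1, Try10, Try5, Pnliprp1 and Cel lost their calls, and A2m, Serpina4-ps1, Aqp8 and Socs2 gained one. The 1989 genes at 3 weeks became 1069 at an adjusted p under 0.01, 1015 without Npc1+/+ mice 1 and 2, 159 with a 2-fold minimum and 1354 to 1918 with 1 mouse left out. No called gene changed sign under quantile scaling. The 254 genes against 1 week became 98 at 0.01, 519 with array weights, 131 without both Npc1+/+ mice and 140 to 325 with 1 mouse left out. The 101 genes against 5 weeks became 28 at 0.01, 65 without the filter on low values, 322 with array weights, 34 without both Npc1+/+ mice and 45 to 117 with 1 mouse left out. The 769 genes against the other 5 ages became 372 at 0.01, 430 without both Npc1+/+ mice and 533 to 783 with 1 mouse left out. The cause was not tested. The 5180 genes changing with age became 3930 at 0.01 and 5478 without the filter on low values. The other filters, scalings and weights tried for this count lay between these. With a 2-fold minimum 285 rose and 453 fell, and the count with mice left out was not computed. Without both Npc1+/+ mice 5 of the 1989 genes changed sign, among them Cel, a pancreatic lipase, from -2.00 to 0.13, and none of the 5 passed there.

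Same-numbered mice did not deviate together (correlations of 0.12, -0.01, -0.05 and -0.14), so numbers were not taken as pairs. With the replicate number as a block the counts were 1927, 247, 62 against 5 weeks and 721. For the age change in Npc1+/+ the block could not be fitted, since numbers are nested in age. A 1-week Npc1-/- mouse averaged 8.99 over skeletal muscle genes, against 5.30 to 5.50 in the other 1-week mice. Without it, an alternative chosen after seeing the data, 188 genes differed from 1 week and 742 from the other 5 ages. Over 23 pancreas genes, 1-week Npc1-/- mouse 2 averaged 5.84 and 1-week Npc1+/+ mice 1 and 4 averaged 5.13 and 5.32. The other 1-week mice stood at 4.74 to 4.82. What part this signal has in the tests against 1 week was not tested.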

Other observations

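Antioxidant and Nrf2 target genes, which protect cells from oxidants, moved in both directions, with 4 of 17 higher and 3 lower at 3 weeks. The shares of all genes were 8.9% higher and 6.84% lower. Hmox1, the heme oxygenase, was at 8.18, 8.42, 8.38 and 8.32 in Npc1-/- mice against 7.69, 7.74, 7.72 and 7.61 in Npc1+/+ mice, and rose by 0.64 ± 0.12 (limma, adjusted p = 1.89e-04). Gpx4, which reduces lipid peroxides, rose by 0.45 and the secreted peroxidase Gpx3 by 0.78, while catalase (Cat) fell by 0.35. These 4 genes also passed without Npc1+/+ mice 1 and 2, where the list gave 3 higher and 2 lower.

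Genes of glucose use and the fasting response gave 5 higher and 3 lower of 21, against 8.9% and 6.84% of all genes. Without Npc1+/+ mice 1 and 2 the counts were again 5 and 3, but Igfbp1 no longer passed and the phosphofructokinase Pfkl did. The glycolytic genes Aldoa and Hk3 rose by 0.62 and 0.61, and Hk3 is the hexokinase of white blood cells. Khk, the fructokinase of hepatocytes, was at 11.08, 10.58, 10.80 and 11.04 against 11.91, 11.79, 11.52 and 11.34 and fell by 0.76 (SE 0.12; limma, adjusted p = 1e-05), or by 0.55 without those mice. The glycogen phosphorylase Pygl fell by 0.39. Of 15 retinoid genes 3 rose and 4 fell, among them the retinal dehydrogenases Aldh1a1 and Aldh1a7, which fell by 0.94 and 0.85, and the retinoic acid receptor Rarb, which rose by 0.80. Without those mice 2 retinoid genes rose and 3 fell, with Aldh1a1, Aldh1a7 and Rarb still among them.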
